A study of Homo sapiens with 19 samples.

Results

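The comparison set V5-tagged K185R E2F1 against V5-tagged wild-type (WT) E2F1 in C4-2 cells exposed to the LSD1 inhibitor GSK2879552. Its members were all intervals of the 2 peak lists that the labels assign to these groups, 9899 for K185R and 2805 for WT. Together they are 12704 of the 203381 intervals in the 10 lists of the series. Both lines carry a tetracycline-controlled E2F1 and were grown in charcoal-stripped serum, which is poor in androgens. C4-2 is an established castration-resistant prostate cancer line. Both groups received 50 uM GSK2879552 for 24 hours, and their labels name no doxycycline, the usual inducer of such constructs. Whether tagged E2F1 was present is therefore not settled by the sources, and V5 intervals are given below as intervals. Whether each line is a clone or a pool is also not stated.

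Each group had 2 libraries, which the interval names call merged, so there is 1 list per group. The spread between libraries could not be measured, and no difference between these 2 lists carries a test. The peak lists cannot show whether a line carried the mutation. The lists compared with them were RB lists and the other 6 V5 lists of the same 2 lines. RB was mapped in untreated C4-2 (9146 intervals, 2 libraries by the labels) and in untreated VCaP, another prostate cancer line (17026 intervals, 1 library). Interval names of the C4-2 RB list carry 1 library's name, so whether both libraries entered it is not settled. The other V5 lists came from untreated cells, from cells given doxycycline (0.25 ug/ml for 3 days), and from cells given doxycycline and then GSK2879552.

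E2F1 is a transcription factor that drives genes of DNA replication and the cell cycle. The retinoblastoma protein RB binds E2F factors on chromatin and represses those genes. LSD1 is a demethylase that removes methyl groups from histone H3 and from other proteins, E2F1 among them. K185R replaces an E2F1 lysine, known as a site of such methylation, by arginine, which keeps the charge but is not modified in the same way.

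The WT list was shorter than the K185R list, and a larger share of it lay at RB. In the WT list 38.7% of intervals (1086 of 2805) overlapped an RB interval of C4-2, and in the K185R list 7.79% did (771 of 9899). Seen from RB, the WT list met 12.5% of the 9146 C4-2 RB sites (1145 sites) and the K185R list 9.0% (823 sites). The K185R list was 3.53 times as long, so the shorter list met the larger number of RB sites. The contrasts in list length and in RB share rested largely on weak intervals. Among intervals with −log10 q of at least 5 the WT list was the longer one, at 951 against 897 intervals, and 73.5% (70.6 to 76.2) and 61.98% (58.8 to 65.1) lay at RB. Below that threshold 20.9% of 1854 WT and 2.39% of 9002 K185R intervals did. The WT intervals at or above it met 749 C4-2 RB sites (8.19%), and the K185R ones 607 (6.64%).

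Intervals were divided by whether they overlapped the other list by at least 1 base. The WT list held 2061 intervals of its own and 744 shared ones, which are 26.5% of it (95% Wilson interval 24.9 to 28.2). The K185R list held 9153 of its own and 746 shared, or 7.54% (7.03 to 8.07). Wilson intervals here cover counting error over intervals only, which are not replicates. The shared intervals formed 755 overlapping pairs, with a median distance of 15 bases between summits, and 85.4% of the pairs had summits within 100 bases. Few of the unshared intervals were near misses. Without overlap, 33 of the 2061 WT-alone intervals had a K185R summit within 1 kb, and 72 of the 9153 K185R-alone intervals had a WT summit that near.

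RB overlap separated the classes. Of the WT-alone intervals 555 (26.9%, 25.1 to 28.9) lay at a C4-2 RB interval. Of the K185R-alone intervals 237 did (2.59%, 2.28 to 2.94), a share 10.4 times lower. That ratio was 1.71 among intervals with −log10 q of at least 5 (61.8% and 36.2%) and 1.85 among the 1000 strongest of each list. Shared intervals lay there most often, in 71.4% of cases in the WT list and 71.6% in the K185R list. RB of VCaP, a different cell line, gave the same order for the unshared intervals, with 23.7% of WT-alone and 1.04% of K185R-alone intervals. At RB sites that C4-2 and VCaP have in common lay 398 WT-alone intervals (19.3%) and 74 K185R-alone intervals (0.809%).

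**Figure D1:**
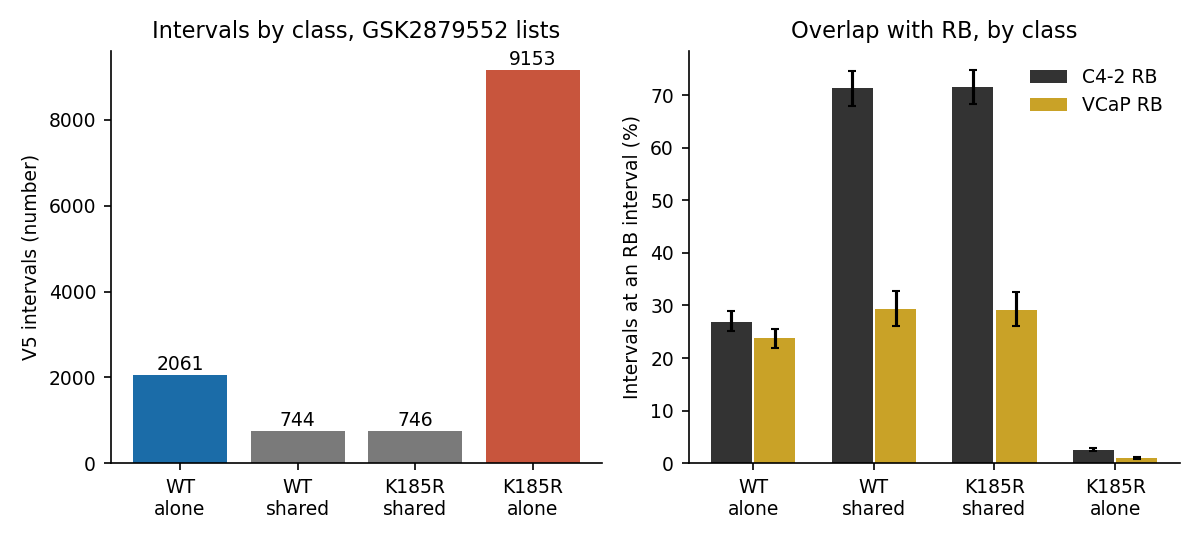
Left, number of V5 intervals in each class of the GSK2879552 lists. Right, percent of each class that overlapped an RB interval of C4-2 (black) or VCaP (yellow), with 95% Wilson intervals as error bars; WT-alone intervals reached 26.9% and 23.7%, and K185R-alone intervals 2.59% and 1.04%.

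The 2 lists differed in depth, and the values below bear on how an absent interval is read. The genome-wide expectation, called the floor, was 0.139 reads at a point in the WT list and 0.180 in the K185R list. Divided by fragment length this is an estimated depth of 0.716 and 1.02 reads per kilobase, so the K185R list was 1.43 times deeper. In both lists the fewest reads at a summit were 3. The median summit held 6 reads in WT and 5 in K185R. Scaled to the WT depth the K185R list kept 6063 intervals, 2.16 times the WT number, and 4.15% of its unshared intervals lay at C4-2 RB. With reads scaled down to the WT floor, 459 K185R-alone intervals (5.02% of that class) reached the WT median summit. Of these 459, 181 (39.4%) lay at C4-2 RB. With reads scaled up to the K185R floor, 1990 WT-alone intervals (96.6% of that class) reached the K185R median, 553 of them at C4-2 RB. The part of depth in these differences was otherwise not tested.

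Strength within each list followed sharing. The fold is the authors' enrichment value for an interval, reads piled at its summit divided by those expected locally. In the WT list its median was 5.11 for unshared and 6.29 for shared intervals, and in the K185R list 4.81 and 6.09. Median −log10 q, the authors' significance value (a larger number is a smaller q), was 3.34 in unshared and 8.27 in shared WT intervals. For K185R it was 2.75 and 8.25. Unshared summits had a median of 5 reads in each list, and shared summits 16 reads in each. At low local background, defined below, the shared summits had medians of 9 reads in WT and 8 in K185R, and their median −log10 q was 5.98 and 4.77. The narrowest width found in a list was that of most unshared intervals, 65.2% for WT (194 bases) and 66.9% for K185R (176 bases), against 14.7% and 13.7% of the shared ones.

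The strongest intervals were shared. All 115 WT intervals with −log10 q of at least 20 were shared, and 153 of the 155 such K185R intervals. Between 10 and 20 the shared part was 88.2% of 220 WT intervals and 79.7% of 217 K185R intervals. Between 5 and 10 it was 41.7% of 616 and 34.3% of 525. Under 3 it was at most 5.99% in WT and 1.62% in K185R. Most of each list was weak. Of the K185R-alone intervals 4.27% had −log10 q of at least 5, and of the WT-alone intervals 18.7%.

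**Figure D2:**
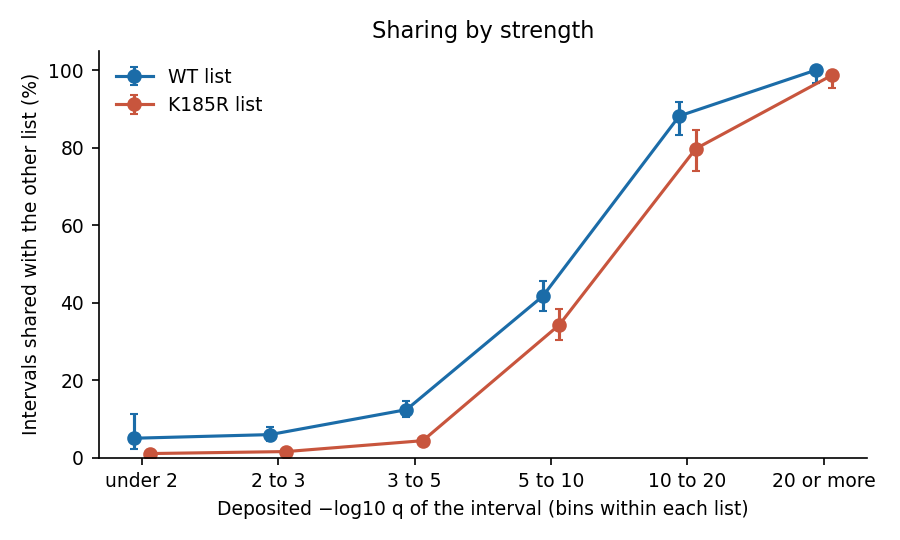
Percent of intervals shared with the other GSK2879552 list (vertical axis) in bins of the deposited −log10 q (horizontal axis), WT in blue and K185R in red, with 95% Wilson intervals. Sharing was at most 12.4% below a −log10 q of 5 and at least 79.7% from 10 upward in both lists.

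The strong shared intervals were in large part regions of high local background. Intervals whose local expectation reached 10 floors or more of their own list were called high background. Of the 744 shared WT intervals 321 were of this kind, with a median background 38.1 times the floor, and 296 of the 321 overlapped C4-2 RB. In the K185R list 322 of 746 were. Among the unshared intervals only 26 of 2061 in WT and 160 of 9153 in K185R had such a background. The strongest interval of both lists was one of them, on chromosome 1 (121483973 to 121485519 in WT), where 363 reads stood on a background of 252.3 floors. The K185R interval at the same place had 343 reads on 208.7 floors. All other V5 lists and both RB lists also had an interval there.

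Without high background the contrast at RB was wider. At low background 541 of 2035 WT-alone intervals (26.6%, 24.7 to 28.5) and 121 of 8993 K185R-alone intervals (1.35%, 1.13 to 1.60) lay at C4-2 RB. Of the K185R-alone intervals of high background 72.5% did (116 of 160), so 116 of the 237 K185R-alone intervals at RB came from these regions. Among shared low-background intervals 235 of 423 in WT (55.6%) and 235 of 424 in K185R lay at RB.

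At equal summit reads the WT-alone intervals were more often at RB in every bin. With 5 reads, 13.2% of 659 WT-alone and 0.328% of 3355 K185R-alone intervals of low background lay at a C4-2 RB interval. With 7 or 8 reads the shares were 58.1% of 308 and 2.94% of 545. With 9 to 11 reads they were 70.2% of 168 and 21.5% of 121. With 12 or more reads they were 81.5% of 54 and 59.3% of 59, and here the Wilson intervals (69.2 to 89.6 and 46.6 to 70.9) overlapped. High background included, the shares in that last bin were close. They were 73.1% of 78 WT-alone (62.3 to 81.7) and 68.95% of 219 K185R-alone intervals (62.5 to 74.7). The same number of reads is a smaller enrichment in the deeper K185R list.

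**Figure D3:**
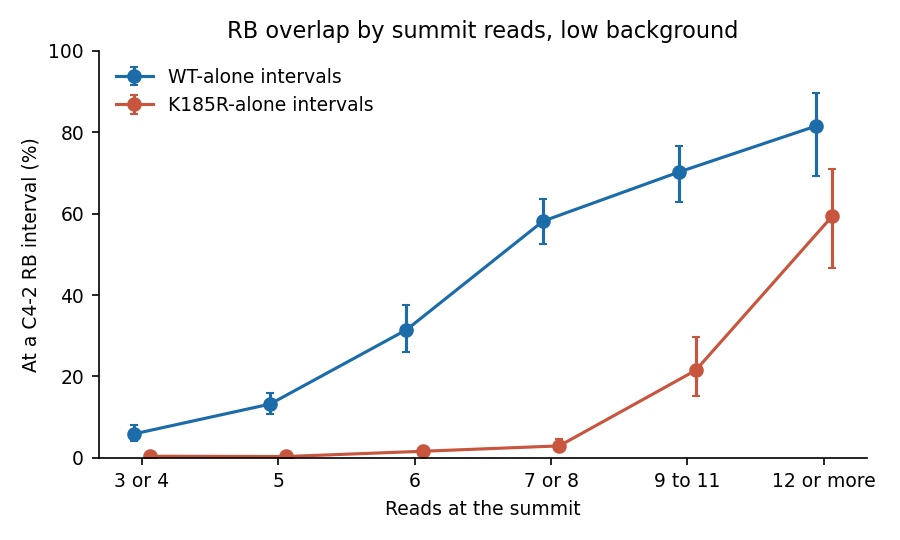
Percent of unshared low-background intervals at a C4-2 RB interval (vertical axis) by the number of reads at the summit (horizontal axis), WT-alone in blue and K185R-alone in red, with 95% Wilson intervals. At 7 or 8 reads the shares were 58.1% and 2.94%.

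Where low-background V5 intervals overlapped a C4-2 RB interval, their summits lay close together, which overlap of short intervals largely fixes in advance. In these overlapping pairs the median summit distance was 49 bases for WT-alone (550 pairs) and 26 for K185R-alone intervals (123 pairs). It was 43 for shared WT (247 pairs) and 32 for shared K185R intervals (244 pairs). Over whole classes, at any background, the median distance to the nearest C4-2 RB summit was 69899 bases for WT-alone and 153951 for K185R-alone intervals. For shared intervals it was 53 in WT and 45.5 in K185R. Few intervals lay beside an RB site without overlap. A further 51 WT-alone intervals (2.47%) and 72 K185R-alone intervals (0.787%) had an RB summit within 1 kb but overlapped no RB interval.

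The RB sites themselves were then classed by the V5 list that met them. The WT list alone met 571 C4-2 RB sites, the K185R list alone 249, and both lists 574, while 7752 sites had no V5 interval in either. Sites with V5 in both lists had a median of 39.5 RB reads at the summit and an RB fold of 7.13. Sites met in K185R alone had 23 reads and sites met in WT alone 17, but their median RB folds were 6.33 and 6.37. Sites with neither had 14 reads and a fold of 5.60. Of the sites met in WT alone 70.9% (67.1 to 74.5) were also RB sites of VCaP. The share was 29.3% (24.0 to 35.3) for those met in K185R alone, 39.9% for those met in both and 60.8% for those met in neither. High background marked 29.8% of the RB sites met in both lists, 23.7% of those met in K185R alone and 1.23% of those met in WT alone, and its part in these differences was not tested.

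WT exceeded K185R mainly at the RB sites present in both cell lines. Among 5233 low-background RB sites present in C4-2 and VCaP, the WT list met 529 (10.1%, 9.32 to 10.96) and the K185R list 175 (3.34%, 2.89 to 3.87). The WT list alone met 401 of these sites, the K185R list alone 47, and both lists 128. Among 3476 low-background RB sites of C4-2 without a VCaP counterpart, the lists met 438 (12.6%, 11.5 to 13.8) and 418 (12.03%, 10.99 to 13.15), intervals that overlap. There 163 sites were met in WT alone and 143 in K185R alone, a ratio of 1.14, against 8.53 at RB sites of both lines. With high-background sites included the lists met nearly equal numbers of sites of C4-2 only. Of these 3726 sites the WT list met 511 (12.65 to 14.86%) and the K185R list 521 (12.91 to 15.13%), intervals that overlap. In WT alone 166 were met and in K185R alone 176 (ratio 0.943). At all 5420 sites of both lines the counts were 405 and 73 (ratio 5.55). The difference between the ratios was not tested.

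Weak RB sites showed the contrast as well as strong ones. The 9146 RB sites were divided by their −log10 q into 4 bins of nearly equal size. In the highest bin, at low background, the WT list met 25.01% of 1967 sites and the K185R list 19.4%. In the next bin down the values were 9.55% and 5.70%, in the one below it 7.13% and 2.21%, and in the lowest 4.53% and 1.58%. Sites met in WT alone outnumbered those met in K185R alone by 212 to 101 in the highest bin and by 125 to 14 in the second lowest.

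**Figure D4:**
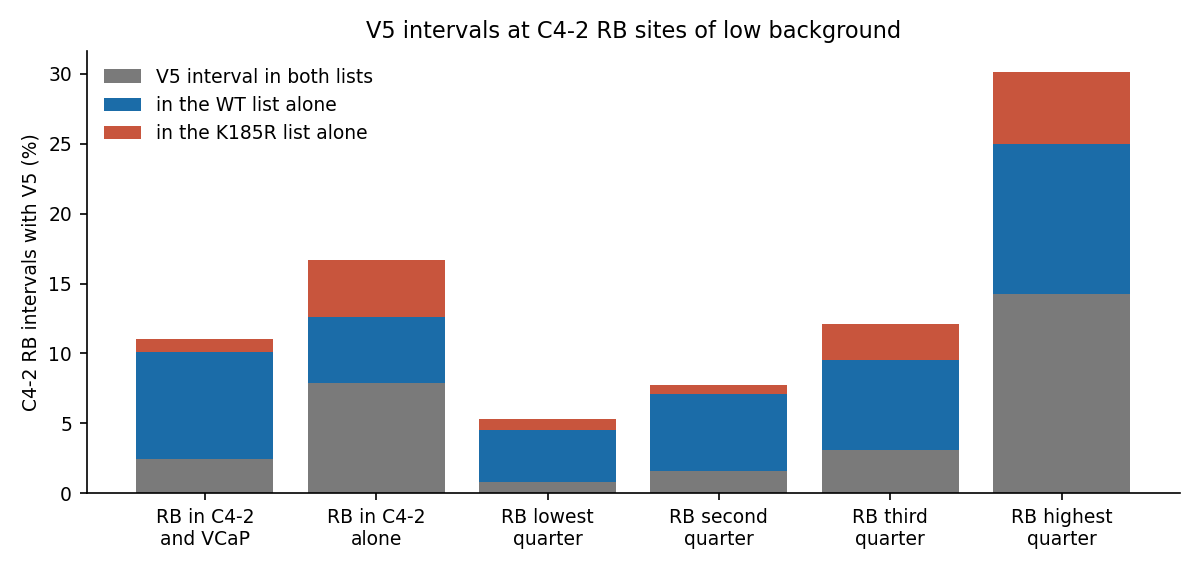
Percent of low-background C4-2 RB intervals with a V5 interval in both GSK2879552 lists (grey), in the WT list alone (blue) or in the K185R list alone (red), stacked from 0. RB intervals are split by presence in VCaP and, separately, into 4 bins of RB −log10 q; in RB sites of both lines 7.66% were met in WT alone and 0.898% in K185R alone.

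The other 6 V5 lists were not used to define the classes and show how far the intervals recurred. The interval names of the lists labelled with doxycycline contain siRB and those of the others siNTC, a difference that the labels do not explain, and groups follow the labels. Of the 555 WT-alone intervals at C4-2 RB 41.3% were in the WT list with doxycycline and GSK2879552, 34.4% in untreated WT and 22.0% in WT with doxycycline. The K185R lists under the same treatments held 2.16%, 14.6% and 7.03%. The mean was 32.6% ± 9.77 (SD, n = 3 lists) for WT and 7.93% ± 6.27 (n = 3 lists) for K185R, and the groups did not overlap. The exact permutation p (both directions counted) was 0.1, which is the smallest that 3 lists against 3 can give, and 0.4 after Benjamini-Hochberg adjustment over 4 such tests. The 3 lists of a protein differ in treatment and are not replicates of it. Exchanged only within treatments, WT was higher in 3 of 3 and the exact p was 0.25, the smallest that this design can give. No class could therefore reach the usual threshold in either test. Shared intervals at RB were also found more often in the other WT lists, in 90.4% ± 2.28 against 81.0% ± 7.60 of the 531 in the WT list (SD, n = 3 lists each, exact permutation p = 0.1, outside the 4 adjusted tests). For the 235 of low background the means were 80.6% ± 4.93 and 61.4% ± 11.8. For the 541 WT-alone intervals at RB of low background they were 31.7% ± 10.7 and 6.35% ± 5.91. In both sets n was 3 lists each and the exact permutation p was 0.1, outside the 4 adjusted tests. Higher recurrence in WT lists was thus not limited to WT-alone intervals. Of the 555 WT-alone intervals at RB 334 (60.2%) were in at least 1 other WT list and 95 (17.1%) in at least 1 other K185R list. Another 213 (38.4%) were in none of the 6.

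List lengths stood as follows beside these values. The WT list with both treatments held 3874 intervals and the K185R one 3498, and they contained 229 and 12 of the 555 intervals. The untreated K185R list, at 55681 intervals, contained 81. At RB sites of both lines 172 of 398 WT-alone intervals (43.2%) were in the WT list with both treatments and 4 (1.005%) in the K185R one.

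Values for the other classes follow, and differences between classes were not tested. The 1506 WT-alone intervals off C4-2 RB were found in the other WT lists in 13.0% ± 8.14 of cases and in the other K185R lists in 11.9% ± 9.16 (SD, n = 3 lists each, exact permutation p = 0.7). The 8916 K185R-alone intervals off RB, most of the K185R list, were found in 10.04% ± 10.1 and 10.5% ± 8.96 (exact permutation p = 0.9, n = 3 lists each). Both adjusted values over the 4 tests were 0.9. For the K185R-alone intervals off RB the shares were larger in the longer lists. They were 21.3% in WT with doxycycline (64025 intervals), 19.9% in untreated K185R (55681), 9.57% in K185R with doxycycline (22328) and 6.82% in untreated WT (15099). In the lists with both treatments they were 1.96% in WT (3874) and 2.09% in K185R (3498). Of the 8916 intervals 5276 (59.2%) were in none of the 6 lists, against 33 of the 237 K185R-alone intervals at RB.

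K185R-alone intervals at C4-2 RB were few, and many of them were in WT lists of the other treatments. Of the 237, 66.7% were in untreated WT, 66.7% in WT with doxycycline and 42.2% in WT with both treatments. For K185R the corresponding lists held 73.0%, 59.1% and 31.6%. The means were 58.5% ± 14.1 and 54.6% ± 21.0 (SD, n = 3 lists each, exact permutation p = 0.7, adjusted 0.9). Of the 237, 121 were of low background. Of these 121, 52.9% were in untreated WT, 47.1% in WT with doxycycline and 45.5% in WT with both treatments. The K185R lists under the same treatments held 52.1%, 43.8% and 23.1%. Their means were 48.5% ± 3.91 for WT and 39.7% ± 14.9 for K185R (SD, n = 3 lists each). The exact permutation p was 0.4, unadjusted. WT was higher in 3 of 3 treatments, against 2 of 3 for all 237. Of all 237 intervals 192 were in at least 1 other WT list. Only 12 were in another K185R list and in no other WT list, whereas 247 of the 555 WT-alone intervals at RB were in another WT list and in no other K185R list.

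**Figure D5:**
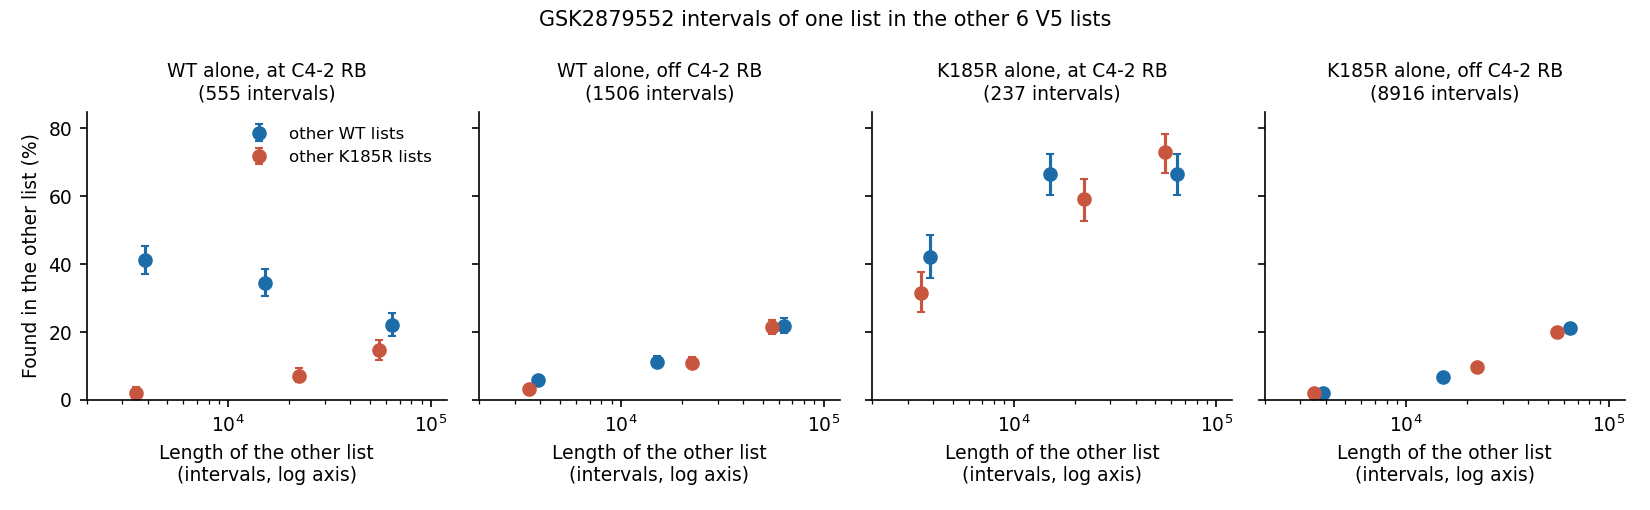
Percent of the unshared GSK2879552 intervals found in each of the other 6 V5 lists (vertical axis) against the length of that list (horizontal log axis), with 95% Wilson intervals; other WT lists are blue and other K185R lists red. In the left panel the WT lists lie at 22.0% to 41.3% and the K185R lists at 2.16% to 14.6%, while in the right panel the shares are larger in the longer lists.

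Single regions are given next. They are given in hg19, the build named by the submitters, and annotated genes were not assigned to them because the gene table used here is of another build. The strongest WT-alone interval of low background was found on chromosome 1 (113498812 to 113499099), where 21 reads gave a fold of 13.1. It overlapped RB in both cell lines and was present in all 3 other WT lists and in 2 other K185R lists. On chromosome 8 (67525500 to 67525801) 19 WT reads, a fold of 12.6, lay over an RB interval with 26 reads. This region had an interval in all 3 other WT lists and in no K185R list. On chromosome 1 at 51434152 to 51434413 the fold was 12.8, with 18 reads, and the RB interval beneath it had a fold of 11.99 and 37 reads. On the same chromosome at 231004156 to 231004399 the fold was 11.8, with 17 reads, at an RB site of C4-2 that VCaP lacked. Both of these last regions were in 2 other WT lists and in no K185R list. The fifth, on chromosome 1 at 121458667 to 121459003, had a fold of 10.6 on a background of 7.68 floors. It was in 2 other WT and all 3 other K185R lists.

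The strongest K185R-alone intervals of low background were also V5 intervals of WT cells under other treatments. All 5 had an interval in each of the other 6 V5 lists, WT lists included, so they were missing from the WT list with GSK2879552 alone. The first, on chromosome 16 (35215846 to 35216152), reached 11.3-fold with 18 reads. The others lay on chromosome 3 at 90477567 to 90477866 (fold 9.69, 22 reads), chromosome 19 at 27890040 to 27890341 (fold 9.07, 21 reads), chromosome 2 at 51581287 to 51581591 (fold 10.6, 12 reads) and chromosome 15 at 25773266 to 25773587 (fold 9.93, 14 reads). All but the one on chromosome 2 overlapped a C4-2 RB interval, and none overlapped one of VCaP. Backgrounds of the 5 were 1.27 to 7.91 floors, against a median of 1.17 for K185R-alone low-background intervals.

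Shared intervals of low background in both lists were ranked by the smaller of their 2 −log10 q values. The first 5 were RB sites of C4-2 that VCaP lacked, and each was present in all 8 V5 lists. Their WT backgrounds were 4.5 to 9.6 floors, under the cutoff of 10 but above the median of 2.65 for shared low-background WT intervals. Whether these places give signal in any library was not tested. On chromosome 2 at 33141191 to 33141624 the WT summit held 38 reads and the K185R summit 39. On chromosome 9 at 78789984 to 78790325 both held 29. At 3 further regions of chromosome 9, starting at 42818950, 42415890 and 70327321 in WT, the summits held 31, 28 and 27 reads in WT and 43, 40 and 44 in K185R. Folds there were 17.1, 16.2 and 16.5 for WT, against 21.4, 21.2 and 21.3 for K185R. The floors differ by a factor of 1.30 between the lists. Because the fold adds 1 to reads and to background, folds of lists that differ in depth are not directly comparable.

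The same division under the other treatments gave an RB share of unshared intervals that was higher in WT each time. With doxycycline and GSK2879552, 23.5% of 3269 WT-alone and 2.35% of 2891 K185R-alone intervals lay at C4-2 RB. These 2 lists had 3874 and 3498 intervals and depths of 0.810 and 0.838 reads per kilobase. In untreated cells the shares were 4.04% of 11592 and 0.414% of 52174, and with doxycycline 0.607% of 58862 and 0.419% of 17170.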

How the data were processed

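V5 and RB ChIP-seq libraries of 2 prostate cancer lines were compared as peak lists. Per the submitters' processing notes, the build was hg19 and the tools included MACS2 2.1.0, BWA 0.7.9a, SAMtools 1.2 and FastQC 0.11.9. Settings and any control library are not stated in these notes or in the labels. Per the labels the authors deposited 1 list per group. Each interval carries a fold enrichment (a linear ratio over local background, taken with 1 added to both terms), a −log10 p, a −log10 q and a summit position. Interval names say merged for V5 and carry 1 library's name for C4-2 RB.

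Summit reads and local background were solved from the deposited fold and −log10 p, taking the fold as (reads + 1) / (background + 1) and p as a Poisson tail. The solved pairs returned the deposited −log10 p to within 0.000163. The solution and the overlaps were tested on simulated data. The floor of a list is the lowest background that 5 or more of its intervals have in common, and depth is the floor divided by the smallest width. Intervals were compared by 1-base overlap in Python 3.11.15 with numpy 2.4.6, pandas 2.3.3 and scipy 1.17.1. Shares carry 95% Wilson intervals, and reads from PCR without molecular identifiers are not independent molecules. No test was made between lists of 1 per group. Recurrence in the other 6 V5 lists was tested by exact, both-sided permutation of 3 lists against 3, and within treatments in an alternative chosen after seeing the data. Named regions are, in each class, the 5 of highest −log10 q at low background (for shared intervals the smaller of both values, at low background in both lists), the 3 highest at C4-2 RB (all among those 5) and the strongest of each list. Alternatives changed the threshold, background, depth, overlap rule, list length and RB list. The members and lists were chosen with earlier results of these data known. Genes near intervals, gene lists, promoter shares and sequence motifs were planned but not analysed here, since the gene and promoter tables used are of GRCh38.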

Additional observations from a re-analysis of the deposited data

Results flagged for a closer look

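With GSK2879552 the ratio of K185R to WT list length was 3.53. It was 3.69 in untreated cells (55681 against 15099 intervals), in the same direction. It was 0.349 with doxycycline and 0.903 with both agents. The direction of the length difference under the last 2 treatments was opposite to that with GSK2879552, each with 1 list per protein, and the difference was not tested.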

How the results depend on the processing

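No paired analysis was possible because the libraries of each group were merged into 1 list. Nor was any library left out, for the same reason. The promoter alternatives were not run. An exact permutation within treatments, chosen after seeing the data, gave p = 0.25 to 0.75 for the 4 recurrence tests, against 0.1 to 0.9 over all 6 lists, and ended no call since none had been made. The RB share stayed higher for WT-alone than for K185R-alone intervals in all 8 alternatives in which it was recomputed. The lowest ratio of the unshared shares was 1.71. In the same 8 the WT list met the larger share of RB sites. Outside these alternatives the direction was the opposite at the 437 high-background C4-2 RB sites, of which K185R met 230 and WT 178. At the 3726 C4-2 RB sites without a VCaP counterpart the numbers were close, 521 for K185R and 511 for WT, with overlapping Wilson intervals.

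The ratio of K185R to WT list length was 3.53. It was 2.16 with the K185R list scaled to the WT depth, and the direction reversed to 0.943 when −log10 q had to reach 5 (897 and 951 intervals). At that threshold the shared part was 48.3% of the WT and 51.4% of the K185R list, RB sites with V5 were 8.19% (WT) and 6.64% (K185R), and the RB share of unshared intervals was 61.8% (WT) and 36.2% (K185R). Among the 1000 strongest intervals of each list these 6 values were 47.5%, 47.7%, 8.47%, 6.90%, 61.3% and 33.1%, so the ratio between the unshared shares fell from 10.4 to 1.85. Without high background the first 4 were 16.8%, 4.39%, 8.69% and 4.002%, and the K185R-alone share was 1.455%. Scaled to the WT depth, the K185R list was shared in 11.7% and its unshared intervals lay at RB in 4.15%. With 50% of both intervals required the 6 values were 23.7%, 6.71%, 7.785%, 5.565%, 18.9% and 1.80%. By summits within 100 bases the first 5 were 22.99%, 6.52%, 9.84%, 7.45% and 21.9%. With RB of VCaP the last 4 were 4.16%, 1.81%, 23.7% and 1.04%, and with RB sites of both lines 11.7%, 5.57%, 19.3% and 0.809%. The cause of these shifts was not tested. Summits held as few as 3 reads in both lists, and an interval under the calling threshold is not shown to be absent.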

Other observations

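The low-background classes differed in where they lay along the genome. K185R-alone intervals were sparse on gene-rich chromosome 19, with 139 intervals against 236 on gene-poor chromosome 18, a ratio of 0.589. WT-alone intervals gave 52 and 48, a ratio of 1.08, and those at C4-2 RB 14 and 6. Low-background RB intervals of C4-2 themselves gave 425 and 135, a ratio of 3.15. Off RB the WT-alone intervals gave 38 and 42. Shared WT intervals gave 8 and 11, a ratio of 0.727. These counts were not scaled to chromosome length, and differences between classes were not tested.

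Shared intervals of high background were gathered on few chromosomes. Of 321 such WT intervals 51 lay on chromosome 10, 37 on chromosome 2, 36 on chromosome 16, 28 on chromosome 4 and 28 on chromosome Y, against 1 on chromosome 3, 1 on chromosome 12 and none on chromosome 13. Low-background WT-alone intervals had 160 of 2035 on chromosome 3 and 5 on chromosome Y.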
